A study of Mus musculus with 6 samples.

Results

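Folding, quality control and import genes of the endoplasmic reticulum (ER) were followed across 6 RNA-seq libraries of cultured mouse chondrocytes, 3 with control siRNA and 3 with Irf1 siRNA. The set was a fixed list of 33 gene symbols, matched to the symbol in front of the Ensembl identifier. All 33 were found among the 55377 genes counted, each once, and all 33 passed the filter on low counts that left 14683 genes for testing. The list was ordered by role into 5 sensors and transcription factors, 15 chaperones and folding enzymes, 10 genes of ER-associated degradation (ERAD) and 3 genes of the translocon. The cells were a primary culture of chondrocytes from articular cartilage, given control siRNA (genotype label control) or Irf1 siRNA (genotype label Irf1-knockdown), and RNA was taken 36 h after transfection in both groups. For the mice, no age, sex or strain was stated, and the siRNA sequences were not used here. Nothing in the labels says that the 3 libraries of a group came from separate cultures or animals, so a p-value here measures the spread between libraries, which may be technical.

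The ER is where secreted proteins enter the secretory route, and chondrocytes secrete large amounts of collagen and proteoglycan through it. Nascent chains pass through the Sec61 channel, fold with the help of the Hsp70 chaperone BiP, lectin chaperones and disulphide isomerases, and, where folding fails, are moved back to the cytosol by ERAD and degraded. Unfolded chains are sensed by IRE1, PERK and ATF6, which drive the unfolded protein response (UPR). IRE1 does so by splicing Xbp1 mRNA, PERK by phosphorylating the translation factor eIF2 alpha, and ATF6 by moving to the Golgi, where the site-1 and site-2 proteases release its active part. The response raises transcription of chaperone, ERAD and translocon genes, in part through the ER stress response element (ERSE) of their promoters. This element is CCAAT, a spacer of 9 bases, and CCACG; a second form has ATTGG, 1 base, and CCACG.

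The promoters that carry this element are shown first, since it is a known route by which the UPR acts on such genes. RefSeq promoters (GRCm38.p6, from 250 bases before to 50 bases after a start) were matched by symbol for 28 of the 33 members; Atf6, Hyou1, Manf, Derl1 and Sec61a1 had no entry. On either strand, the 19-base ERSE was found in 9 of these 28 genes and in 21 of 10705 tested genes with a promoter (0.2%). It was present in 0.12% of all 32851 promoter windows of this length. The 11-base second form was found in 2 further members, against 0.08% of tested genes. The members were listed as genes of this pathway and are counted among the tested genes, so these shares are descriptions and no test. Capitals mark the fixed bases of each element, printed in its own 5′ to 3′ direction with GRCm38.p6 coordinates.
Hspa5 (chr2:34772025-34772043, plus strand): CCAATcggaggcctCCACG
Hsp90b1 (chr10:86705533-86705551, plus strand): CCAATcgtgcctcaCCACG
Hsp90b1 (chr10:86705638-86705656, minus strand): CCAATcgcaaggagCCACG
Calr (chr8:84847075-84847093, plus strand): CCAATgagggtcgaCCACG
Canx (chr11:50325800-50325818, minus strand): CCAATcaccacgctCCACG
Pdia6 (chr12:17266491-17266509, plus strand): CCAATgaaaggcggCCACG
Dnajc3 (chr14:118937827-118937845, plus strand): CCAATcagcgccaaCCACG
Creld2 (chr15:88819520-88819538, minus strand): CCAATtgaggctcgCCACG
Syvn1 (chr19:6046532-6046550, plus strand): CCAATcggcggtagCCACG
Derl3 (chr10:75893242-75893260, minus strand): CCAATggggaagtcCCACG
Herpud1 (chr8:94386377-94386387, plus strand): ATTGGgCCACG
Dnajb11 (chr16:22857852-22857862, plus strand): ATTGGcCCACG
All but the Dnajb11 match ended within 200 bases before the start. The elements of Syvn1, Herpud1 and Hspa5 ended 26, 42 and 47 bases before it, and the farther one of Hsp90b1 ended 194 bases before it. The Dnajb11 match lay after the start. Hspa5, which encodes BiP, is the best known UPR target, and its whole window (chr2:34771840-34772139, plus strand) is shown with the element in capitals.
Hspa5 promoter: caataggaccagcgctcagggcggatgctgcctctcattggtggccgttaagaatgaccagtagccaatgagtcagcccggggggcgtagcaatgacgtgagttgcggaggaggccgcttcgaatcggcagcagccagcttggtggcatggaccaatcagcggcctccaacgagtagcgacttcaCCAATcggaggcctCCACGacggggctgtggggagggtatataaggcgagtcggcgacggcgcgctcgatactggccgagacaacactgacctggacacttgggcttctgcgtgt

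None of the 11 members with either form of the element passed the threshold of the comparison between the groups, which was an adjusted p under 0.05 over all tested genes. Their log2 fold changes, given throughout as Irf1 siRNA minus control siRNA, had a median of −0.001 and ran from −0.09 for Hsp90b1 to 0.37 for Derl3. Of the 17 members whose promoter held neither form, 2 were higher and 3 were lower, with a median of −0.03. Over all tested genes, 10.4% were higher and 12% lower. A repeat of GAAA, any 2 bases and GAAA, the core of sites bound by interferon regulatory factors, was not found for any of the 28 members and was present in 3.43% of tested genes. The UPR element core TGACGTGG was found for 0 of the 28 members, against 1.08% of tested genes. With 28 promoters, 0 matches to patterns this rare carry little information. In the other ER lists described below, the GAAA repeat and the UPR element core were each found for 5 of 86 genes. The 5 bases CCAAT were in 22 of the 28, against 42.8% of tested genes, and the 5 bases CCACG in 22, against 52.4%. Both counts include the 11 members with either form of the element, which hold both by definition (ATTGG is CCAAT on the other strand). A match is a description of letters in this window and not a measurement of binding, and GRCm38.p6 is not the build named for the counts, GRCm39.

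Total counts were 22349142 to 26752065 in the Irf1 siRNA libraries and 28565096 to 29282494 in the control libraries, so each knockdown library was shallower. Levels are CPM, counts scaled to library size after TMM factors, which even out the composition of the libraries. Irf1, the gene targeted, measured 11.1, 12.6 and 12.2 CPM with control siRNA and 5.64, 5.08 and 6.02 CPM with Irf1 siRNA, without overlap (log2 fold change −1.10, adjusted p = 3.0e-06 in edgeR). Chondrocyte markers were high in all 6 libraries, with 10 genes, of which 1 (Hapln1) fell, summing to 89500 to 117130 CPM in the control group and 89515 to 117000 CPM in the Irf1 siRNA group, whereas macrophage markers summed to at most 10.9 CPM, endothelial markers to at most 1.38 CPM and skeletal muscle markers to at most 13.4 CPM. Adgre1 and Itgam were at 0 in all 6. Of these 3 lists 2 genes rose, the macrophage marker Cd68 (log2 fold change 0.40, adjusted p = 0.0316) and the muscle marker Des (0.43, adjusted p = 0.0446). Negative and not called were Lyz2 (macrophage, −0.69, adjusted p = 0.0566), Pecam1 (endothelial, −0.61, adjusted p = 0.205) and Acta1 (muscle, −0.17, adjusted p = 0.297). All of these were without overlap, as were 38.1% of all tested genes. Of 6 fibroblast markers, 3 (the collagen genes Col1a1, Col1a2 and Col3a1) fell; the list summed to 7081 to 8676 CPM with control siRNA and 5091 to 6249 CPM with Irf1 siRNA, with Dpt at most 0.145 CPM. Of 6 osteoblast markers, 1 (Alpl) fell, with sums of 175.6 to 203.5 CPM against 111.6 to 147.9 CPM, and Bglap and Dmp1 were below 1 CPM. In bulk RNA, fewer cells of a type and less RNA per cell cannot be told apart, and the part of these shifts in the results below was not tested.

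The ER genes were abundant, and their summed level overlapped between the groups. Together they held 12234 to 12521 CPM in the control libraries and 11919 to 12262 CPM in the Irf1 siRNA libraries, or 1.19% to 1.25% of the TMM-scaled library size. The 15 chaperones and folding enzymes made up most of it, with 8951 to 9239 CPM against 8700 to 9064 CPM. The 10 ERAD genes summed to 1152 to 1229 CPM against 1114 to 1158 CPM. Sensors and transcription factors (5 genes) summed to 743 to 818 CPM against 793 to 814 CPM. The 3 translocon genes summed to 1221 to 1265 CPM against 1281 to 1292 CPM, the one group of the 4 without overlap. Taken singly, Sec61a1 and Ssr1 overlapped between control and Irf1 siRNA libraries, and Sec61b did not. These sums are descriptions and carry no test.

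**Figure D1:**
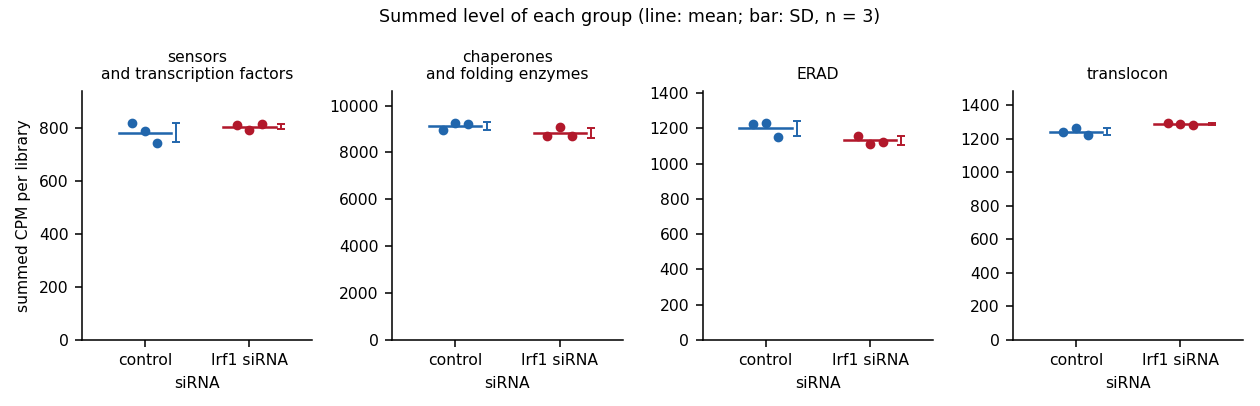
Summed TMM-scaled CPM of each group of ER genes in each library (points), with the mean (line) and SD (bar, n = 3), for control siRNA in blue and Irf1 siRNA in red. Sums of the translocon genes lay at 1281 to 1292 CPM with Irf1 siRNA, above the control range of 1221 to 1265 CPM, and the other groups overlapped. The sums were not tested.

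Levels of different genes are compared only per length, as CPM per kilobase of annotated exon, which falls short for a gene with long exons that these cells do not use. On that scale the control means spanned from 517 ± 8.67 for Calr, the lectin chaperone calreticulin, to 1.06 ± 0.225 for Derl3, a derlin of the ERAD channel (SD, n = 3). Hspa5 came next to Calr with 479.6 ± 13.0, followed by the disulphide isomerase gene Pdia3 with 382 ± 12.2 and Hsp90b1, which encodes the ER Hsp90 GRP94, with 323 ± 10.1. The next 3 places, held by Pdia4 (188 ± 3.59), Canx (175 ± 8.38) and Pdia6 (167 ± 2.63), had control libraries at 185 to 192, 166 to 183 and 164 to 170 in that order: Pdia4 stood above the other two, and Canx and Pdia6 overlapped. All 7 of the highest members were chaperones or isomerases. The sensors were at the other end: Eif2ak3, which encodes PERK, had 12.05 ± 0.377, Atf6 10.8 ± 0.559 and Ern1, which encodes IRE1 alpha, 8.55 ± 0.663 CPM per kilobase. Xbp1, the target of IRE1, stood well above them with 63.4 ± 3.46. Gene counts do not tell spliced from unspliced Xbp1 mRNA, so they carry no reading of IRE1 activity.

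**Figure D2:**
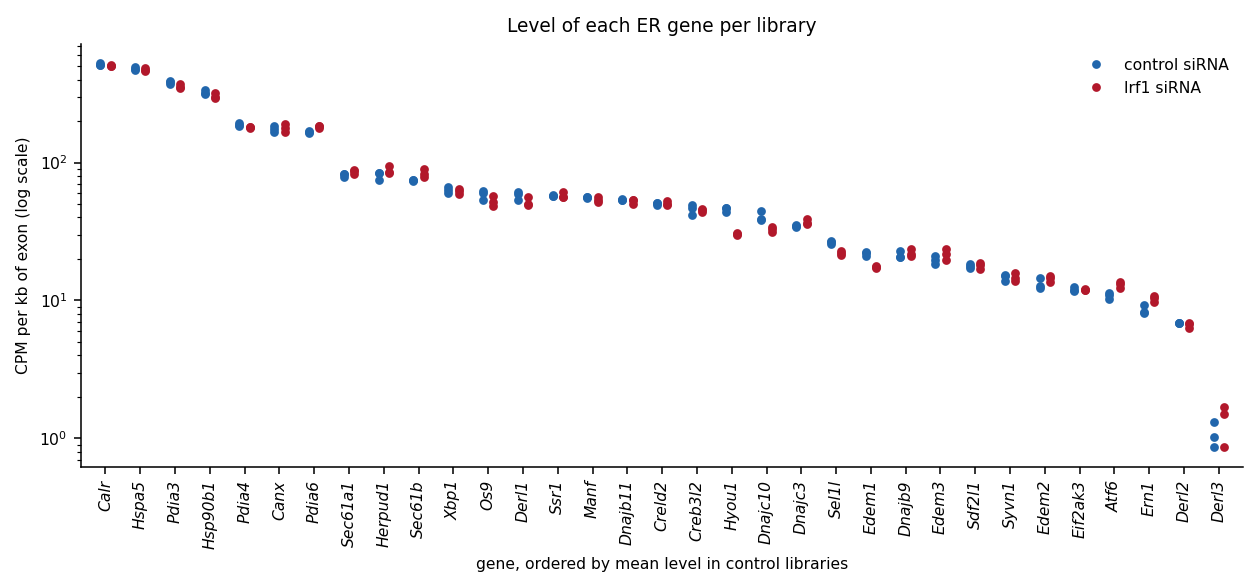
Level of each of the 33 genes in each library, as CPM per kilobase of exon on a log axis, ordered by the control mean; points are single libraries, blue for control siRNA and red for Irf1 siRNA. Chaperone and isomerase genes take the first 7 places, the sensors Eif2ak3, Atf6 and Ern1 places near the low end, and Derl3 the last.

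Of the 33 members, 3 were higher with Irf1 siRNA (9.1%) and 4 were lower (12.1%). Over all 14683 tested genes, 10.4% were higher and 12% were lower, so the share of ER genes called in either direction was near the background. Groups of libraries did not overlap for 12 members (36.4%), against 38.1% of all tested genes. The median log2 fold change of the members was −0.01, and that of all tested genes was 0.00. Their median absolute change was 0.09, against 0.16 over all tested genes. These 2 sets were not matched by level: control means of the members but Derl3 were 19.7 CPM or more. Some tested genes were far lower, such as Bglap at 0.199 CPM. For 25 of the 26 members not called, the whole 95% interval of the change lay within 1.3-fold in either direction, and for 21 of them within 1.2-fold. Derl3, with only 38 to 93 counts per library, was the exception. By role, 2 of 5 sensors and transcription factors were higher and 0 lower, 0 of 15 chaperones and folding enzymes higher and 2 lower, 0 of 10 ERAD genes higher and 2 lower, and 1 of 3 translocon genes higher and 0 lower. The median log2 fold changes of the 4 roles were −0.00, −0.04, −0.03 and 0.07 in that order. A difference between the roles was not tested.

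**Figure D3:**
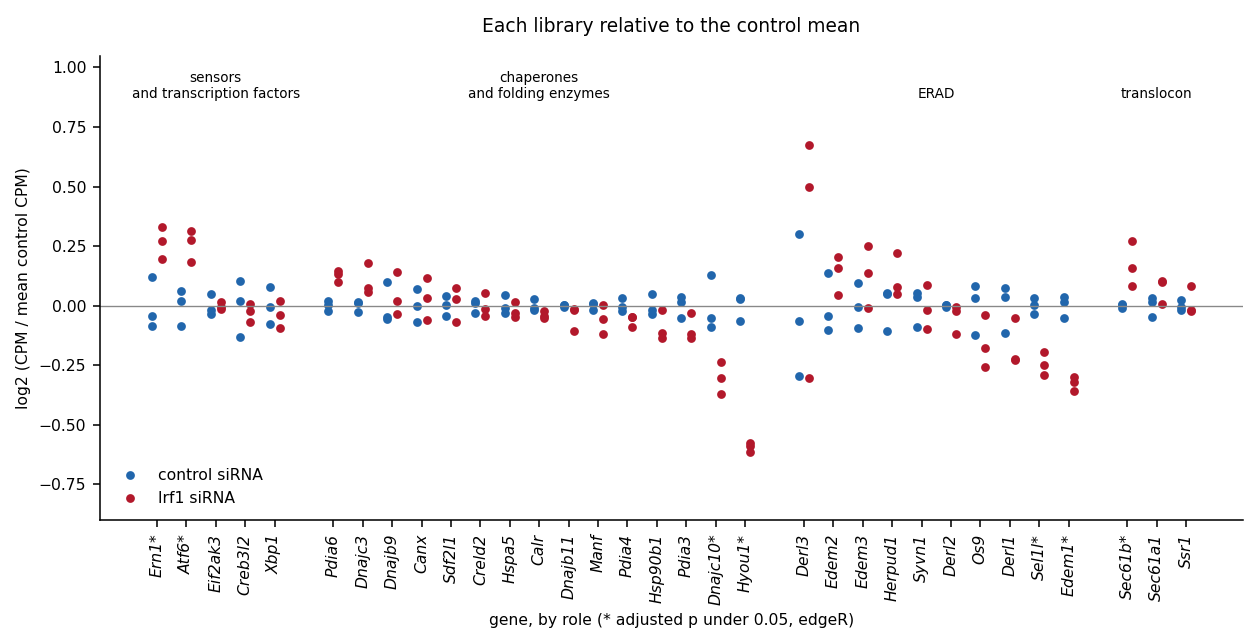
Each library's CPM over the mean control CPM, on the log2 scale, for the 33 genes grouped by role, blue for control siRNA and red for Irf1 siRNA, with an asterisk at genes with an adjusted p under 0.05. The red points of Hyou1 lie near −0.6 and far from the control points, and most genes have both groups close to 0.

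Among the sensors, Atf6 and Ern1 rose and Eif2ak3 did not pass the threshold. Counted with the transcription factors, 2 of 5 genes were higher (40%, against 10.4% of all tested genes). Atf6, whose product is a membrane-bound transcription factor, measured 101, 94.5 and 105 CPM in the control libraries and 114, 121 and 125 CPM in the Irf1 siRNA libraries. All 3 Irf1 siRNA libraries lay above all 3 controls, and the log2 fold change was 0.26 with a standard error of 0.06 (adjusted p = 0.00575, edgeR quasi-likelihood test). Ern1 measured 76.0, 65.8 and 67.8 CPM in the control libraries and 84.4, 80.0 and 87.9 CPM in the Irf1 siRNA libraries. The groups were again apart, by 0.27 on the log2 scale (standard error 0.07, adjusted p = 0.00783), but the call was lost without control replicate 2 (adjusted p = 0.0542) or Irf1 siRNA replicate 3 (adjusted p = 0.057). Eif2ak3 measured 75.2, 71.7 and 70.9 CPM in the control libraries and 73.4, 72.3 and 72.0 CPM in the Irf1 siRNA libraries. Here the groups overlapped, and the 95% interval of the change was −0.12 to 0.12 on the log2 scale, below the estimates for the other 2 sensors. Whether the sensors differed from each other was not tested.

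The transcription factors of the response overlapped between the groups. Xbp1 measured 205, 217 and 195 CPM in the control libraries and 209, 200.4 and 193 CPM in the Irf1 siRNA libraries, with an interval of −0.16 to 0.09 on the log2 scale. Creb3l2, a relative of ATF6 that drives secretory genes in cartilage, measured 359.8, 339 and 305 CPM in the control libraries and 329.9, 319 and 336 CPM in the Irf1 siRNA libraries, with an interval of −0.16 to 0.11. Neither passed the threshold (adjusted p = 0.705 and 0.803 in edgeR).

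Among 15 chaperones and folding enzymes, 0 rose and 2 fell, Hyou1 and Dnajc10, and 13 did not pass the edgeR test. The share lower was 13.3%, against 12% of all tested genes, and the share higher 0%, against 10.4%. Hyou1, an Hsp110-type chaperone that works as a nucleotide exchange factor of BiP, showed the largest change of all 33 genes. It measured 337, 338 and 316 CPM in the control libraries and 221, 219 and 215 CPM in the Irf1 siRNA libraries. The Irf1 siRNA libraries lay close together and far below the controls, a 1.51-fold fall (−0.59 on the log2 scale, standard error 0.05, adjusted p = 1.50e-06). The means were 330.1 ± 12.4 against 219 ± 2.96 CPM (SD, n = 3). Dnajc10, which encodes ERdj5, a reductase with a J domain that opens disulphides of ERAD clients, measured 190.2, 195 and 222 CPM in the control libraries and 156, 172 and 164 CPM in the Irf1 siRNA libraries. It fell without overlap by 0.30 on the log2 scale (standard error 0.07, adjusted p = 0.00351), with the control libraries more spread than the Irf1 siRNA libraries.

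BiP, the chaperone that Hyou1 and the J-domain genes serve, did not pass the threshold, and its interval was narrow. Hspa5 measured 1983, 2089.6 and 2012 CPM in the control libraries and 1986, 2048 and 1965 CPM in the Irf1 siRNA libraries, an interval of −0.14 to 0.10 on the log2 scale from 43998 to 59597 counts per library. The groups overlapped, as did those of Hsp90b1 (log2 fold change −0.09, interval −0.21 to 0.03). The J-domain partners of BiP gave 0.05 for Dnajb9, −0.04 for Dnajb11 and 0.10 for Dnajc3. Dnajb9, a target of XBP1 that holds IRE1 in its inactive state, measured 52.9, 52.4 and 58.4 CPM in the control libraries and 53.3, 60.2 and 55.3 CPM in the Irf1 siRNA libraries, and its groups overlapped. The lectin chaperones Calr and Canx gave −0.04 and 0.03 on the log2 scale. Of the disulphide isomerases, Pdia3 gave −0.10, Pdia4 −0.06 and Pdia6 0.13. All 3 Irf1 siRNA libraries of Pdia6 lay above the controls, with an adjusted p of 0.0977, which did not pass. Groups were also apart, by −0.06 to 0.10 on the log2 scale and without a call, for Calr, Pdia4, Dnajb11 and Dnajc3. With the called genes, 7 of the 15 chaperones and folding enzymes were without overlap (46.7%), against 38.1% of all tested genes. Sdf2l1, a partner of ERdj chaperones, and the secreted UPR products Creld2 and Manf gave 0.01, 0.00 and −0.06.

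Of 10 ERAD genes, 2 fell, 0 rose and 8 did not pass the edgeR threshold. The share lower was 20%, against 12% of all tested genes, and the share higher 0%, against 10.4%. Edem1, which speeds the removal of misfolded glycoproteins by trimming their mannose, measured 145, 143 and 136 CPM in the control libraries and 113, 115 and 110.2 CPM in the Irf1 siRNA libraries. Every Irf1 siRNA library was below every control, and the log2 fold change was −0.32 (standard error 0.05, adjusted p = 5.16e-04). Its relatives Edem2 and Edem3 gave 0.14 and 0.13 with overlapping groups (adjusted p = 0.198 and 0.203). Sel1l, the adaptor that holds the HRD1 ubiquitin ligase complex together, measured 230.4, 225 and 219 CPM in the control libraries and 184, 189 and 197 CPM in the Irf1 siRNA libraries. It fell without overlap by 0.24 on the log2 scale (standard error 0.05, adjusted p = 0.00437). Syvn1, which encodes the ligase HRD1 itself, gave −0.01 with an interval of −0.14 to 0.13.

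The other ERAD members did not pass the threshold. Herpud1, a UPR target that recruits the ligase complex, measured 195, 196 and 175 CPM in the control libraries and 220.2, 196 and 199 CPM in the Irf1 siRNA libraries. Control replicate 2 lay above Irf1 siRNA replicate 2, so the groups overlapped (log2 fold change 0.12, adjusted p = 0.207). The derlin genes Derl1 and Derl2 gave −0.17 and −0.05, and the lectin gene Os9 gave −0.16. Derl1 (adjusted p = 0.0852) and Os9 (adjusted p = 0.115) passed without Irf1 siRNA replicate 1 (0.0271 and 0.0367) and without control replicate 3 (0.0267 and 0.0361), and both passed with no filter on low counts (0.0296 and 0.0463). Derl3 gave 0.37 with an interval of −0.13 to 0.87, too wide at its counts to show a change of this size.

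Translocon genes had positive values, of which 1 of 3 passed (33.3% higher, against 10.4% of all tested genes). Sec61b, the small beta subunit of the channel, measured 94.2, 94.6 and 93.6 CPM in the control libraries and 114, 105 and 99.5 CPM in the Irf1 siRNA libraries. The groups did not overlap, and the log2 fold change was 0.17 (standard error 0.06, adjusted p = 0.0485). This call was lost without any 1 of Irf1 siRNA replicates 1 and 2 or control replicates 1, 2 and 3 (adjusted p = 0.0617 to 0.178). It was also lost with DESeq2 (0.0538), with no filter on low counts, without the robust option of edgeR and with counts thinned to the shallowest library. Sec61a1, the pore-forming alpha subunit, measured 555, 560.5 and 531 CPM in the control libraries and 588, 551 and 590.3 CPM in the Irf1 siRNA libraries, with overlap (log2 fold change 0.07, adjusted p = 0.399). Ssr1, the alpha subunit of the translocon-associated protein (TRAP) complex, gave 0.01 with an interval of −0.10 to 0.13.

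**Figure D4:**
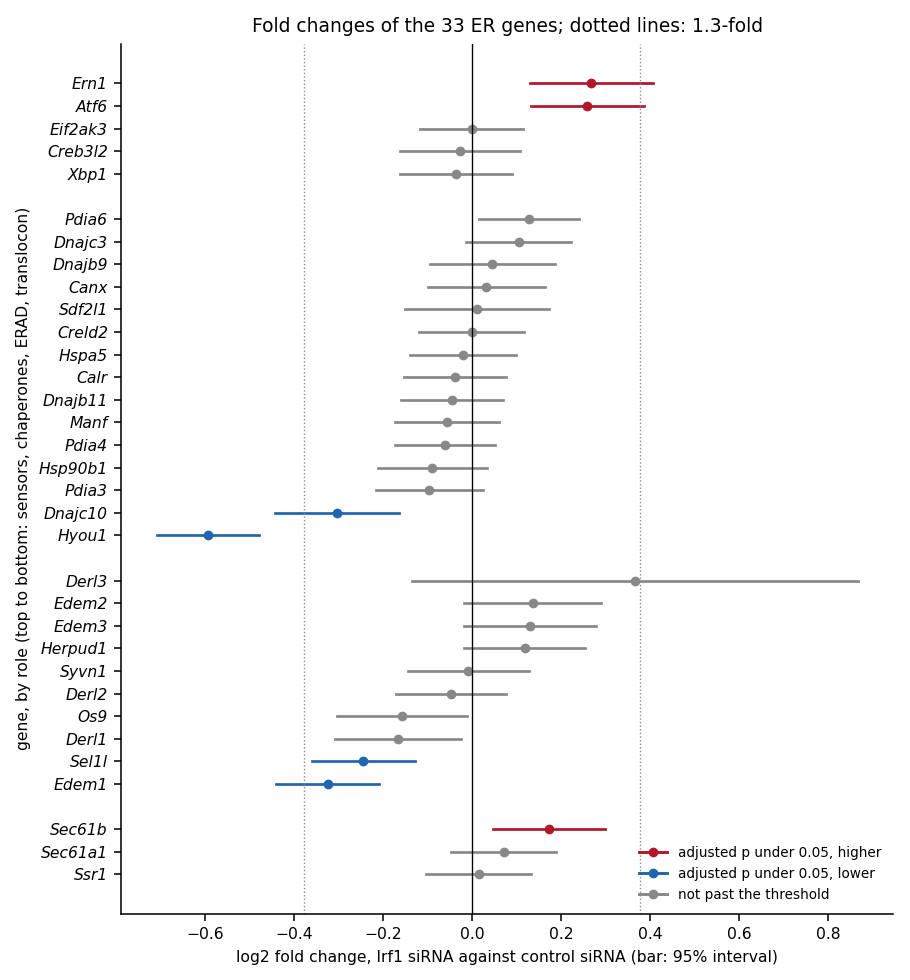
Log2 fold change of each gene (point) with its 95% interval (bar), by role, red for higher and blue for lower at an adjusted p under 0.05 and grey for genes not past it; dotted lines mark 1.3-fold. All intervals of grey genes but that of Derl3 lie between the dotted lines, and Hyou1 lies farthest from 0 at −0.59.

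Other genes of the same pathways were taken from 6 lists with 115 symbols, of which 111 were tested. Of these, 13 were higher (11.7%) and 16 were lower (14.4%), against 10.4% and 12% of all tested genes, with a median log2 fold change of 0.01. Which direction held more calls depended on the scaling: with upper-quartile factors the lists had 18 higher and 11 lower, and all tested genes 1853 higher and 1548 lower. No list below was tested against the other genes. The lists were chosen with earlier results of these data known, so their shares are descriptions. Among relatives and processors of the sensors, 1 of 8 rose and 1 fell (12.5% each), and they were the proteases that release ATF6. Mbtps1, the site-1 protease, measured 205, 206 and 197 CPM in the control libraries and 166, 155 and 169 CPM in the Irf1 siRNA libraries and fell by 0.31 in log2 terms (adjusted p = 8.87e-04). Mbtps2, the site-2 protease, measured 33.1, 32.9 and 32.4 CPM in the control libraries and 39.3, 41.8 and 39.1 CPM in the Irf1 siRNA libraries and rose by 0.29 (adjusted p = 0.00373). Both were without overlap, in opposite directions. Of 7 genes downstream of PERK, 2 rose, Atf3 (0.33, adjusted p = 0.012) and Chac1 (0.29, adjusted p = 0.0125), and 0 fell, a share of 28.6% higher. Chac1 was no longer called when Irf1 siRNA replicate 1 was left out (adjusted p = 0.0529). Their upstream factor Atf4 gave −0.05 (adjusted p = 0.59), and Ddit3, which encodes CHOP, gave 0.26 (adjusted p = 0.105). The rest of this list gave 0.12 for Ppp1r15a, −0.12 for Nupr1 and −0.18 for Trib3 (adjusted p = 0.293, 0.193 and 0.152), with overlapping groups. Of the 7 values, 4 were positive and 3 negative. Ddit3 passed with the replicate block (0.0121), DESeq2 (0.0466), no filter on low counts (0.00259) and without Irf1 siRNA replicate 2 (0.0248).

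Genes for glycan-dependent folding and cofactors of Hsp70 had 6 of 16 lower (37.5%, against 12% of all tested genes) and 0 higher (against 10.4%). The list was chosen with earlier results of these data known, so these shares are no test. The members that fell include enzymes that trim or restore the glucose that calnexin and calreticulin read. Prkcsh, the beta subunit of glucosidase II, measured 267, 265 and 259 CPM in the control libraries and 212, 191 and 210.0 CPM in the Irf1 siRNA libraries, a fall of 0.37 in log2 terms (adjusted p = 2.66e-04). Mogs, which encodes glucosidase I, fell by 0.38 (adjusted p = 0.00146), and Uggt1, the folding sensor that puts glucose back, fell by 0.23 (adjusted p = 0.00527). Kdelr3, a receptor that returns chaperones from the Golgi, fell by 0.24 (adjusted p = 0.00994), which did not hold when control replicate 2 was left out (0.0627). Ganab, the catalytic subunit of glucosidase II, and Dnajc1, which were named after their values were seen, fell by 0.18 and 0.17. Ganab lost its call without any 1 of control replicates 1 and 2 or Irf1 siRNA replicates 2 and 3 (adjusted p = 0.086 to 0.139) and with upper-quartile factors (0.0635), and Dnajc1 without any 1 of the 6 libraries (0.0552 to 0.149). Dnajc1 kept its call in only 5 of the 14 alternative settings tried. The lectins themselves, Calr and Canx, did not pass, with intervals of −0.15 to 0.08 and −0.10 to 0.16 on the log2 scale.

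Genes of disulphide formation had 2 of 16 lower (12.5%) and 1 higher (6.2%), near the shares of all tested genes. Erp29, an isomerase relative without the redox motif, measured 129, 136 and 130.4 CPM in the control libraries and 71.8, 70.7 and 68.7 CPM in the Irf1 siRNA libraries, a fall of 0.91 on the log2 scale (standard error 0.06, adjusted p = 2.35e-08). This was larger than the change of any of the 33 members. Tmx4, a membrane thioredoxin, fell by 0.54 (adjusted p = 9.80e-05), and the isomerase gene Txndc5 rose by 0.25 (adjusted p = 0.00403). Of 30 further ERAD genes, 4 fell (13.3%) and 2 rose (6.7%), against 12% and 10.4% of all tested genes. Ube2j1, the ubiquitin-conjugating enzyme that serves HRD1 at the membrane, measured 140.3, 149 and 146 CPM in the control libraries and 97.7, 103 and 101 CPM in the Irf1 siRNA libraries, a fall of 0.53 (adjusted p = 5.27e-06). Erlin2, a membrane scaffold for ERAD of the inositol trisphosphate receptor, measured 47.7, 50.4 and 52.7 CPM in the control libraries and 67.9, 77.7 and 77.8 CPM in the Irf1 siRNA libraries, a rise of 0.57 (adjusted p = 1.95e-05). The other ERAD genes named by the rule, Tmem129 and Ubxn8, fell by 0.38 and 0.37 (adjusted p = 9.04e-04 and 0.00224).

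Of 34 genes of translocation, signal peptidase and oligosaccharyltransferase, 7 rose (20.6%, against 10.4% of all tested genes) and 3 fell (8.8%, against 12%). Subunits of the TRAP complex had calls in both directions. Ssr3 fell from 912, 969 and 958 CPM in the control libraries to 702, 733 and 707 CPM, by 0.41 on the log2 scale (adjusted p = 7.36e-05). Ssr2 rose by 0.26 (adjusted p = 0.00871), and Ssr1, as above, did not pass. Ssr4, the remaining subunit, named after its values were seen, rose by 0.17 (adjusted p = 0.0412), a call lost with no filter on low counts (0.0782) and when any 1 of Irf1 siRNA replicates 1, 2 and 3 or control replicates 2 and 3 was left out (0.0541 to 0.174). Tusc3, a subunit of the oligosaccharyltransferase that adds glycans to nascent chains, rose by 0.27 (adjusted p = 0.00284), and the catalytic subunit gene Stt3a rose by 0.19 (adjusted p = 0.0172). The call of Stt3a was lost without Irf1 siRNA replicate 3 (0.0992) or control replicate 2 (0.0548) or 3 (0.0508). Also named after their values were seen, the other catalytic subunit gene Stt3b rose by 0.17 (adjusted p = 0.0291) and Magt1, the paralogue of Tusc3, fell by 0.19 (adjusted p = 0.0357). Magt1 lost its call with upper-quartile factors (0.0637) and without Irf1 siRNA replicate 1 or 3 or control replicate 2 or 3 (0.101 to 0.127), and Stt3b with no filter (0.0638) and without Irf1 siRNA replicate 2 or 3 or any 1 control library (0.0613 to 0.103).

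**Figure D5:**
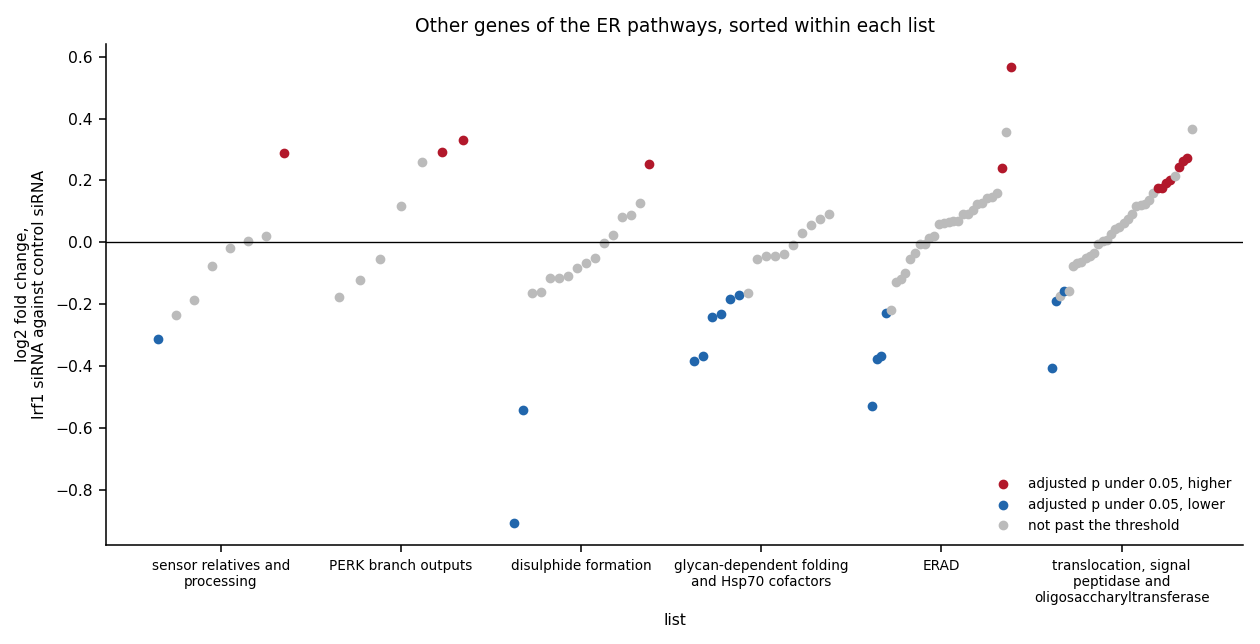
Log2 fold change of the 111 tested genes of the 6 other lists, sorted within each list, red for higher and blue for lower at an adjusted p under 0.05 and grey otherwise. The glycan-dependent list has 6 blue points and no red one, and the lowest point of all is Erp29 at −0.91.

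Short words in 3′ untranslated regions (3′ UTRs) were more frequent among lower genes in this comparison. Earlier work on these files picked 4 words of 7 bases because they went with falls, so their shares describe that choice and are no test. The 4 are the runs in capitals in the lines for Hspa5, Dnajb9, Manf and Dnajc3. With the 3′ UTRs of GENCODE M21, 745 of 1703 lower genes (43.7%) held a word, against 204 of 1415 higher genes (14.4%) and 1921 of 9702 genes not called (19.8%). Among the 33 ER genes, 6 held one or more. Hyou1 holds 2 of the words, overlapping in a run of 8 bases. The matched bases are shown in capitals within their flanking bases, 5′ to 3′.
Hyou1: aaaaatgtGCTATCTActgtgagc
Hspa5: gtgcACTGATCtgctagag
Creb3l2: gtctgtgaACTGATCtgttgcac
Dnajb9: agcatattCTGATCAtaggccat
Dnajc3: ttattgcaCTATCTAtggttgaa
Manf: tcgtcttaGCTATCTtcttgtgt
Of these 6, Hyou1 fell and the other 5 were not called; the log2 fold changes of the 6 ran from −0.59 to 0.10. In Hyou1 the run was present in 2 of 3 annotated 3′ UTRs, and in Manf in 1 of 5. Hspa5 holds its word 5 bases into the 3′ UTR in both annotated forms. Dnajc10 held a word in the coding sequence only. Edem1 and Sel1l, the other lower members, held none in either region, nor did Atf6, Ern1 and Sec61b, the higher ones. Of the 16 lower genes of the other lists, 9 held a word in the 3′ UTR, among them Erp29, Tmx4, Ube2j1, Prkcsh, Mbtps1 and Ssr3, against 2 of 12 higher genes with a 3′ UTR. The part of these words in the falls was not tested.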

How the data were processed

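RNA-seq with a stranded kit for polyadenylated RNA measured 6 libraries, 3 per group, per the labels' protocols. The authors deposited raw counts per gene, whole numbers that are not normalised; Trimmomatic 0.39, FastQC, STAR and GRCm39 (mm39) are named in the submitters' processing notes. The counting tool and its annotation and strand setting are not given in the sources, so genes that overlap can share reads. None of the 7 called members shares exon bases with another gene in GENCODE M21.

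Counts were tested in R 4.3.3 with edgeR 4.0.16 (filterByExpr, TMM factors, robust quasi-likelihood F test, two-sided; the only term was the group). Adjusted p-values are Benjamini-Hochberg over 14683 genes. Standard errors are the absolute log2 fold change over the square root of F, and 95% intervals use the t quantile of the total degrees of freedom. CPM per kilobase uses the union of M21 exons (GRCm38), joined by gene identifier. Motifs were searched on both strands of RefSeq promoters. Scripts were tested on simulated data. No library was a copy of another in its group: the chi-square of counts per degree of freedom was 5.35 to 15.2.

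Members and lists were chosen with earlier results of these data known. Named in full were the called members, the sensors, Hspa5, Dnajb9, Herpud1 and Sec61a1, and up to 4 called genes of each other list by smallest p. Alternatives tried were RLE and upper-quartile factors, DESeq2 1.42.0, no filter, a mean of at least 5 CPM, a replicate block, no robust option, thinning to 22349142 counts, and leaving out each library. Hm13 and Srpra stand in the files under the older symbols H13 and Srpr. Ddit3 has 2 identifiers, of which 1 had 0 counts and was not tested. Protein sequences were not used here.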

Additional observations from a re-analysis of the deposited data

How the results depend on the processing

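Hyou1, Edem1, Sel1l, Dnajc10 and Atf6 kept their direction and their call in all 14 alternatives. Ern1 kept its call in 12 and Sec61b in 5; both stayed higher in all. The count of lower members was 4 in the analysis reported and 4 to 6 without single libraries. That of higher members was 3, and 1 to 2 without single libraries; the 1 without control replicate 2 was Atf6. Over all tested genes, single libraries left 959 to 1398 higher genes in place of 1522 and 1276 to 1716 lower in place of 1767, and over the other lists 8 to 11 higher in place of 13 and 10 to 18 lower in place of 16. The lowest counts of higher genes came without Irf1 siRNA replicate 3 or control replicate 2 (959 and 980 over all genes, 8 and 8 over the lists). Signs turned for members near 0, none of them called. With RLE factors Eif2ak3 gave 0.0012 and Creld2 0.00137 on the log2 scale; with upper-quartile factors Eif2ak3 gave 0.0243, Hspa5 0.00505, Creld2 0.0245 and Syvn1 0.0172; with no filter Sdf2l1 gave −0.00439 and Ssr1 −0.000481; with the 5 CPM filter Eif2ak3 gave 0.00525 and Creld2 0.0055; with thinned counts Creld2 gave 0.00206. Without single libraries the ranges were −0.0192 to 0.0234 for Eif2ak3, −0.0129 to 0.076 for Canx, −0.00652 to 0.096 for Dnajb9, −0.0275 to 0.0162 for Creld2, −0.0581 to 0.0357 for Syvn1, −0.0209 to 0.032 for Ssr1, −0.024 to 0.0509 for Sdf2l1, −0.0909 to 0.027 for Creb3l2 and −0.0756 to 0.00307 for Xbp1. The causes were not tested. Replicate numbers are shared by the groups, and same-numbered libraries deviated with correlations of 0.195, −0.045 and 0.052. Control replicate 3 went best with Irf1 siRNA replicate 2 (0.192). Whether same-numbered libraries share a culture or batch is not stated in the labels and was not tested. With the replicate block, 1744 genes were higher and 1984 lower, members were 3 and 5 (Derl1 added, adjusted p = 0.0494), and the other lists 16 and 17; Irf1 gave −1.11 on the log2 scale. Upper-quartile factors turned the balance of calls, with 1853 genes higher and 1548 lower (54.5% of calls higher, against 46.3%) and 18 and 11 in the other lists; Pdia6 also passed (adjusted p = 0.0482). With no filter, 1480 genes were higher and 2042 lower, members were 2 and 6 (Derl1 and Os9 added, Sec61b lost), and the other lists 13 and 22. Counts limit Derl3 alone among the members.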
